A study of Mus musculus with 2 samples.

Results

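The 6 genes described here, Stat2, Stat3, Stat4, Stat5a, Stat5b and Stat6, encode signal transducer and activator of transcription (STAT) proteins. They were chosen as members of 1 family, by a rule that uses no measured value, though with earlier results of these data known. Each gene was placed with GENCODE M21 on mm10, and every accessible region overlapping its body or lying within 50 kb was taken. This gave 33 of the 25799 regions of the series, and 6 of its 21938 protein-coding genes. The assay was ATAC-seq, which reads out where a transposase can enter chromatin and insert sequencing adapters. The series held 1 group, the mouse line G1E, with 2 biological replicates of 50000 cells each. The labels give these cells as Gata1- erythroid progenitors of a male, strain C57BL/6J, postnatal, age 0 day, with no treatment, and both replicates share that genotype, so there was no comparison between conditions. Whether they were grown as separate cultures is not stated in the labels.

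STAT proteins wait in the cytoplasm until a cytokine receptor and its Janus kinase (JAK) phosphorylate them, after which they pair, enter the nucleus and bind DNA, usually at a palindrome of TTC and GAA. STAT5A and STAT5B carry the erythropoietin signal in red cell progenitors, STAT3 serves receptors that use gp130, and STAT2 works with IRF9 downstream of type I interferon. STAT4 mainly serves interleukin 12 in lymphocytes, and STAT6 serves interleukins 4 and 13. G1E cells lack GATA1, the main erythroid GATA factor, and do not complete red cell maturation.

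Per replicate, overlapping or touching peaks of the authors' thresholded lists were merged into 21194 regions in replicate 1 and 22620 in replicate 2. After joining, 17425 regions were listed in both. The signal of a region is the enrichment value of its strongest peak as deposited. It was not scaled between libraries, so a region's percentile within its own replicate's list was used to compare regions. The lists hold no read totals, so the depth of each library is unknown, and absence from a list does not show closed chromatin. Regions no more than 1000 bp from the start of any annotated transcript of a protein-coding gene are called promoter regions. A noncoding start region lies within 1000 bp of a start of a gene of another type only, and a distal region lies farther from every annotated start. Of the erythroid progenitor markers examined, 7 of 7 had a promoter region in both replicates, against 38.8% of all protein-coding genes. The counts were 2 of 8 for markers of other blood lineages (Spi1 and Ebf1) and 0 of 5 for markers from outside blood. Of the latter, Col1a1 had one in replicate 2 only. Mean percentiles over the replicates were 76.7 for Spi1 and 63.9 for Ebf1. Those of the erythroid markers ran from 11.6 (Tal1) to 90.0 (Nfe2).

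The start of Stat2 carried one of the strongest promoter regions of the series, and the starts of Stat4 and Stat5b had none listed in both replicates, so sequences just upstream of these and the other STAT starts are shown for comparison. They are RefSeq promoter entries on GRCm38.p6, the assembly behind mm10. They were cut at the start site and freed of bases annotated as UTR, which shortened those of Stat5a and Stat5b. The Stat5a and Stat5b sequences shown lack the bases next to the start. Matches close to the start therefore cannot be compared between them and the other genes. All 6 genes matched entries, and Stat4, Stat5a and Stat5b had 2 entries each. They lie at chr10:128270248-128270497 (plus strand, Stat2), chr11:100939541-100939790 (minus strand, Stat3), chr10:127642736-127642985 (plus strand, Stat6), chr11:100860234-100860344 (plus strand, second start of Stat5a), chr11:100850725-100850831 (minus strand, first start of Stat5b) and chr1:51986898-51987147 (plus strand, first start of Stat4). Capitals mark matches on either strand to the STAT palindrome TTCNNNGAA and its form with 4 bases between TTC and GAA, the interferon-response string (TTTC repeated with 2 bases between), CCAAT (NFY), CCNCNCCC (KLF), TGTGGT (RUNX) and the GATA string (GATA with A or T before it and A or G after it).
Stat2: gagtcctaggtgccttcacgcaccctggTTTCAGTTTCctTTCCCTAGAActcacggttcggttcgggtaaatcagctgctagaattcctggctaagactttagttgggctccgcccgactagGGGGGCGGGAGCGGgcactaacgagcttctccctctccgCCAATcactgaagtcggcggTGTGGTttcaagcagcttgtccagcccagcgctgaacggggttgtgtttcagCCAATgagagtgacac
Stat3: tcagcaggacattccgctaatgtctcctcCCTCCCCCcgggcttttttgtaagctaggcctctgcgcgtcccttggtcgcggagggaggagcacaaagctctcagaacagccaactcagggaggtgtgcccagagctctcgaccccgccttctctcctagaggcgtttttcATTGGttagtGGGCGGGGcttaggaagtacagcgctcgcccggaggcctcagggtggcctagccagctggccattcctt
Stat6: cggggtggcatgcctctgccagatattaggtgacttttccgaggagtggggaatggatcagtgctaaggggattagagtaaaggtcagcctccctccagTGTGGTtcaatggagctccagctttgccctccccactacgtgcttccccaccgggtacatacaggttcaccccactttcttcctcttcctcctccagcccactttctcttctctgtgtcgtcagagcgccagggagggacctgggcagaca
Stat5a: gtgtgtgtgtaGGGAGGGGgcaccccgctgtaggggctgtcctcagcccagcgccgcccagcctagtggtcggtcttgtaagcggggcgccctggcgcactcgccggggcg
Stat5b: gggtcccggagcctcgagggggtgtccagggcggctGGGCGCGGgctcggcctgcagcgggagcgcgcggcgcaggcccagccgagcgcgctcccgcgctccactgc
Stat4: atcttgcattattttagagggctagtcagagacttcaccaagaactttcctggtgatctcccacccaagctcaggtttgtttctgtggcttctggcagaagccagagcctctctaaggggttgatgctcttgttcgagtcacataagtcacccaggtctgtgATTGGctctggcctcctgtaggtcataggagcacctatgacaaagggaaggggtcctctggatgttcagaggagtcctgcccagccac
In the Stat2 sequence the interferon-response match TTTCAGTTTC lay 222 to 213 bp before the RefSeq start, the 4-base-spacer STAT match TTCCCTAGAA 210 to 201 bp before it, and the CCAAT matches 88 to 84 and 16 to 12 bp before it. The Stat3 sequence held 1 CCAAT match on its opposite strand, 79 to 75 bp before the start, and 2 KLF matches. The second Stat4 entry, not shown, also held the interferon-response string, as GAAAGTGAAA 97 to 88 bp before its start. That entry overlapped no listed region and held 1 GATA match. Of all 32851 RefSeq promoter entries of 300 bp, 3.44% held the interferon-response string. These are string matches and do not show binding.

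The distal regions listed in both replicates near the STAT genes numbered 4, and all of them held a GATA string within 100 bp of the summit. Of all distal regions in both replicates, 68.9% held one. The 200 bp summit windows of the 4 are shown on the plus strand of mm10, together with the window of the only listed region inside Stat4. The windows lie at chr11:100891698-100891897 (Stat3 intron), chr11:100865735-100865934 (Stat5a intron), chr11:100948486-100948685 (upstream of Stat3), chr10:127604486-127604685 (upstream of Stat6, in an Lrp1 intron) and chr1:52100597-52100796 (Stat4 intron, replicate 2 only). Capitals mark the GATA, RUNX and STAT strings above, the PU.1 string GAGGAAGT, and the composite of CTG, 7 or 8 bases, and a GATA string, on either strand.
Stat3 intron: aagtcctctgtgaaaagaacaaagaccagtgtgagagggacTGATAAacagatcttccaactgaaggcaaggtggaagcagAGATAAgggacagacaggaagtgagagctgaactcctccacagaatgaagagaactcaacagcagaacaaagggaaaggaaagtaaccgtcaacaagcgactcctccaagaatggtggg
Stat5a intron: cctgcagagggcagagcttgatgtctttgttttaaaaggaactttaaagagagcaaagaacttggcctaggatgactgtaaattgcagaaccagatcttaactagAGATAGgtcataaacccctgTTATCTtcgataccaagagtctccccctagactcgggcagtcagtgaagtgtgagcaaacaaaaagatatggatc
Stat3 upstream: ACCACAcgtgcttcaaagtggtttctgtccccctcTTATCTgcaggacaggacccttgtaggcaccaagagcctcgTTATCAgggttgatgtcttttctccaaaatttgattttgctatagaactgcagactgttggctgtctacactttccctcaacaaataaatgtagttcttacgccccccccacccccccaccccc
Stat6 upstream: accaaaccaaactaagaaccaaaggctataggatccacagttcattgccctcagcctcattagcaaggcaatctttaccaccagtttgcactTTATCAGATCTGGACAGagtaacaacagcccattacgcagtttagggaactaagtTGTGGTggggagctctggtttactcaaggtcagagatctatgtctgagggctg
Stat4 intron: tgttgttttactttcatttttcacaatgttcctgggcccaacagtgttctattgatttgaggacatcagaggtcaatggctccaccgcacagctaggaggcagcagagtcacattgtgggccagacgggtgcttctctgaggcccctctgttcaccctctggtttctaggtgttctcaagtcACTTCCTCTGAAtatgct
The Stat3 and Stat5a introns and the site upstream of Stat3 each held 2 GATA matches. At least 2 were in 35.0% of all distal regions in both replicates. The window upstream of Stat6 held 1 GATA match, as part of the composite TTATCAGATCTGGACAG. In the Stat4 intron the STAT match TTCCTCTGAA overlapped a PU.1 match, and there was no GATA match.

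Across the family, 4 of 6 members had their promoter region listed in both (Stat2, Stat3, Stat5a and Stat6), Stat5b had one in replicate 2 only, and Stat4 had none in either. The series background was 38.8% of protein-coding genes with a promoter region in both replicates. In replicate 1, 4 of 6 STAT genes (66.7%) had one, against 40.5% of all protein-coding genes. In replicate 2, 5 of 6 (83.3%) had one, against 42.1% of all protein-coding genes. The mean over replicates was 75% ± 11.8 for the STAT genes and 41.3% ± 1.14 for all protein-coding genes (SD, n = 2). With 6 genes, 1 gene moves the share by more than that spread, and no test was run.

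STAT2, the interferon-responsive member, had the strongest start region. It lay at chr10:128270255-128270794, with a signal of 20.1 in replicate 1 and 20.9 in replicate 2, the 99.6th and 99.3rd percentiles. These values ranked 78 of 21194 and 152 of 22620. Among the 8507 protein-coding genes with a promoter region in both replicates, Stat2 ranked 46 by mean percentile of its strongest one, above 99.5% of them. The summits of the replicates lay 23 bp apart. The region covered the interferon-response and STAT string matches shown above, but they lay outside the 200 bp summit window, which held both CCAAT matches, 3 KLF matches and 1 RUNX match. The interferon-response match began 175 bp before the summit. No other region was listed within the 22.3 kb gene body.

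Stat2 had 5 regions in both replicates, and all were at protein-coding starts. Besides its own, they were at Pan2, a poly(A) deadenylase subunit gene, Cs, the citrate synthase gene, Cnpy2, and Timeless, a replication fork gene. The Pan2 region (chr10:128303121-128303998), 10.4 kb past the end of Stat2, was nearly as strong as that of Stat2, at 15.9 and 18.8 (95.5th and 97.6th percentiles). The Cs region (chr10:128337323-128338163) had signals of 10.4 and 14.4 (70.3rd and 86.2nd), and the Cnpy2 region (chr10:128322143-128322659) 8.35 and 10.4 (52.2nd and 62.9th). The Timeless region (chr10:128231940-128232477), 38.2 kb upstream, was weak in both replicates, at 4.28 and 4.89 (3.96th and 5.77th). No distal region near Stat2 was listed in both, and 1 further region was listed in replicate 2 only.

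STAT3, which serves gp130 receptors, had the next strongest start region of the family. It lay at chr11:100939306-100939952, with signals of 13.0 and 15.5 (85.6th and 90.6th percentiles). Stat3 ranked 2015 of the 8507 genes by promoter percentile, above 76.3% of them. The summits lay 8 bp apart. The summit window held 2 CCAAT and 2 KLF matches. Stat3 spans 54.4 kb on the minus strand and had 5 regions in both replicates, more than 83.1% of protein-coding genes. Of these, 3 were distal, and 90.9% of protein-coding genes had fewer distal regions. The 5 regions include the Stat5a start region and the distal region in a Stat5a intron, both within 50 kb of Stat3.

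The strongest distal region of the family lay in a Stat3 intron at chr11:100891332-100892154. Its signal was 8.88 in replicate 1 and 11.4 in replicate 2 (57.5th and 70.4th percentiles), and the summits lay 1 bp apart. It was 47.7 kb inside the outermost Stat3 start and 6.70 kb from the 3′ end of the gene. It lay 1020 bp from the start of a shorter Stat3 transcript, just past the 1000 bp that define a promoter region. A weaker distal region lay 9.05 kb upstream of Stat3 (chr11:100948206-100948885), with signals of 3.99 and 5.76 (2.52nd and 14.3rd percentiles). It was outside the authors' conservative list, and its −log10 of the irreproducible discovery rate (IDR), a measure of how reproducibly peaks rank between samples, was 0.69.

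STAT5A and STAT5B, the erythropoietin-responsive pair, are encoded 8.63 kb apart. Stat5b runs on the minus strand and Stat5a on the plus strand, and Stat5a and Stat3 overlap by 72 bp at their 3′ ends. The 3 gene bodies span 159 kb, and with 50 kb on either side they held 13 regions, 7 of them in both replicates. Of those 7, 3 lay within 50 kb of more than 1 of the genes and were counted once in the family total.

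The Stat5a start region lay at chr11:100860159-100860615, with signals of 9.54 and 8.35 (63.0th and 44.7th percentiles), so it ranked lower in replicate 2. Stat5a ranked 6249 of the 8507 genes by promoter percentile, above 26.5%. The summit was 0.986 kb inside the outermost Stat5a start, within the second RefSeq promoter entry and upstream of its start. The summits of the replicates lay 112 bp apart, the largest gap among the 20 regions in both. That second RefSeq promoter entry had a GC content of 67.7% and a CpG observed to expected ratio of 0.80, higher than in 79.1% of entries. The first entry, which overlapped no listed region, had 57.7% GC and a ratio of 0.20, higher than in 29%. In a Stat5a intron, the region at chr11:100865599-100866125 had signals of 8.55 and 10.4 (54.5th and 63.3rd percentiles), 6.48 kb from the outermost start.

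Stat5b had no region in both replicates within its 70.0 kb body. Near its start, a region was listed in replicate 2 only, at chr11:100849512-100849917, with a signal of 7.93 (39.8th percentile), 621 bp from the nearest Stat5b start. The lenient list of replicate 1 held a region there with a signal of 5.98, and the authors' conservative list of both replicates held it as well. No listed region overlapped the first RefSeq promoter entry of Stat5b, which had the highest GC content of the STAT entries, 82.7%, and 50 CpG dinucleotides at an observed to expected ratio of 1.01, higher than in 94.6% of entries. The part that GC content played in the listing was not tested. Inside Stat5b, 1 further region was listed in replicate 2 only (7.37) and 1 in replicate 1 only (5.25). The latter had a signal of 6.23 in the lenient list of replicate 2 and was in the conservative list.

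The 5 regions in both replicates within 50 kb of Stat5b were those of Stat5a (its start and its intron), the Stat3 intron, and 2 at Rab5c, which encodes an early endosome GTPase. The stronger Rab5c region (chr11:100738074-100738588) had signals of 11.4 and 15.5 (77th and 90.6th percentiles). The weaker one (chr11:100737090-100737464), 712 bp from a Rab5c start, had 6.14 and 5.08 (25.2nd and 7.0th), and its window held 2 GATA matches. At Ghdc, 2 regions were listed in replicate 1 only. The lenient list of replicate 2 held a region there with a signal of 8.64, and the conservative list covered both.

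Stat5a and Stat5b arose by duplication, and sequences they share can draw reads that align to both. Alignment of the repeat-masked gene bodies gave 16 stretches of 77.1 to 98.3% identity, covering 15.6% of Stat5a and 5.74% of Stat5b. The longest was 1688 bp at 98.3% identity. Of the 13 regions of the cluster, 1 overlapped such a stretch, the Stat5a start region, over 65 of its 457 bp. That 65 bp stretch was 89.2% identical to one at the second, internal start of Stat5b. The handling of such reads was not given in the sources used here.

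STAT6, the interleukin 4 and 13 factor, had 6 regions in both replicates, and 89.7% of protein-coding genes had fewer. Its start region (chr10:127642466-127643355) had signals of 7.31 and 9.94 (40.6th and 59.4th percentiles), listed as 2 separate peaks in replicate 1 and as 1 stretch with 3 summits in replicate 2. By promoter percentile Stat6 ranked 6572 of the 8507 genes, above 22.7%. The strongest summits lay 2 bp apart, at the annotated start. The stronger replicate 1 peak was 351 bp wide and the replicate 2 stretch 821 bp. Its summit window matched none of the strings named here. A second region 791 bp from a Stat6 start was listed in replicate 2 only (7.21). In an intron of Lrp1, 38.4 kb upstream, the distal region at chr10:127604442-127604899 had signals of 7.41 and 10.4 (41.9th and 62.6th).

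Beyond the 3′ end of Stat6, 4 regions in both replicates lay within 1000 bp of starts of Nab2, a corepressor gene, and Nemp1, a nuclear envelope gene. The strongest (chr10:127676698-127677177), which covers an internal Nemp1 start and the start of the antisense gene Gm16230, had signals of 13.2 and 13.0 (86.7th and 79.7th percentiles). The others, at chr10:127666602-127667194, chr10:127667569-127667974 and chr10:127668066-127668430, had 4.14 and 3.94, 5.67 and 5.46, and 6.73 and 6.37. All 4 ranked lower in replicate 2, with differences (replicate 2 minus replicate 1) of -1.71 to -11 percentile points, while the start of Stat6 ranked 18.8 points higher there.

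STAT4, the interleukin 12 factor, was the member with the least accessible chromatin listed. Its 120 kb body held no region in both replicates, and no region lay near any of its 4 annotated starts, in the lenient lists as well. Its RefSeq promoter entries had CpG observed to expected ratios of 0.10 and 0.25, higher than in 13.9% and 36.1% of entries, against a median of 0.38 over all entries. In the body, 1 intronic region (chr1:52100597-52100808) was listed in replicate 2 only, with a signal of 7.89 (39.6th percentile), against a lenient value of 4.81 in replicate 1. The lenient lists added an intronic site 17.1 kb inside the gene, at 2.85 in replicate 1 and 5.76 in replicate 2. Both regions in both replicates lay past the 3′ end. One was at a noncoding start 6.56 kb away (chr1:52113455-52114077), with signals of 8.13 and 11.1 (50th and 68.3rd). The other was at the start of the next protein-coding gene, 12.3 kb away, with 9.17 and 11.3 (60th and 69.6th).

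**Figure D1:**
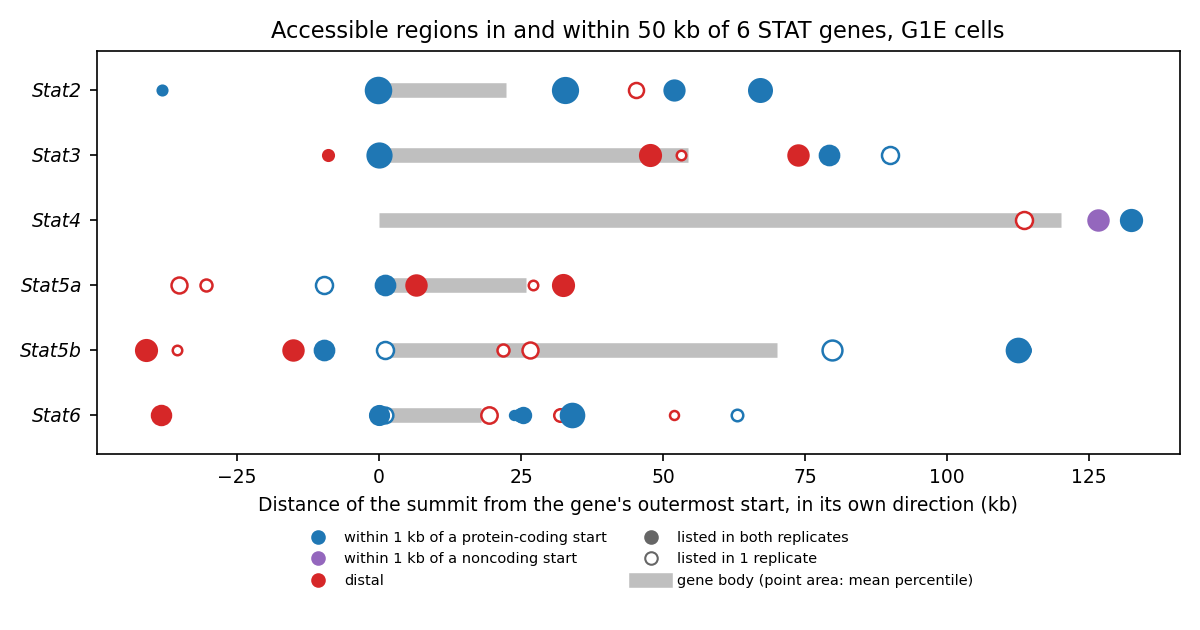
Regions in and within 50 kb of each STAT gene. The x axis is the distance of the summit from the gene's outermost start in kb, in the direction of transcription, gray bars are gene bodies, filled points are regions in both replicates, open points those in 1, and point area rises with the mean percentile. Stat2 and Stat3 have large filled points at their starts, and the bodies of Stat4 and Stat5b hold open points only.

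As a whole, 20 of the 33 regions (60.6%) were listed in both replicates, against 67.5% of all 25799 regions. Of the other 13, 6 were in replicate 1 only and 7 in replicate 2 only, and 9 had a region in the lenient list of the other replicate. For that last count, the share over all regions listed once was not computed. Of the 20, 15 lay at protein-coding starts, 1 at a noncoding start, and 4 were distal. The start regions of the STAT genes themselves made up 4 of them, and 12 were start regions of neighbouring genes. The median of their mean percentiles was 58.2 (SD of the replicate medians 6.85, n = 2), against 58.7 for all regions in both replicates. The 13 listed once had a median of 28.5, against 18.7 for all such regions. The median for the 4 distal regions was 55.6, against 51.0 for all distal regions in both, and for the 15 promoter regions 57.5, against 67.4 for all promoter regions in both.

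The summits of the 20 regions lay a median of 11 bp apart, against 18 bp for all regions in both, and 19 of 20 (95.0%) were within 50 bp, against 83.9%. Of the 20, 18 passed an IDR of 0.05, and 18 were in the authors' conservative list. Some regions listed once were in that list as well. Among them were the one near the Stat5b start (−log10 IDR 1.81) and one at the Ghdc start (2.26). The regions ranked higher in replicate 2 for 13 of the 20. The shares over all regions in both replicates were not computed for the IDR, conservative-list and rank counts. Those counts therefore describe the 20 regions only and do not set them apart from other regions. The per-replicate median percentile was 53.4 in replicate 1 and 63.1 in replicate 2.

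**Figure D2:**
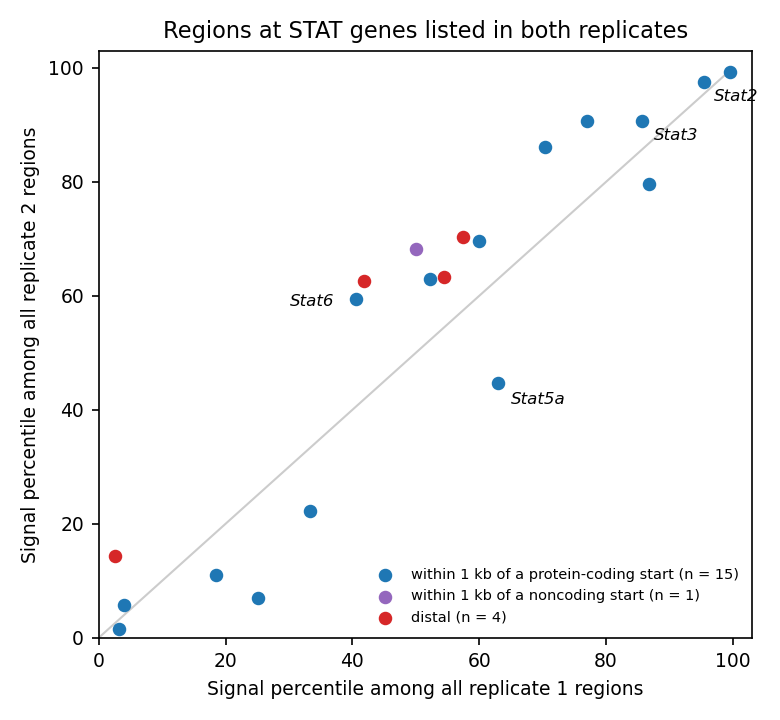
Signal percentile of the 20 regions in both replicates, replicate 1 on the x axis and replicate 2 on the y axis, each among all regions of that replicate, colored by class, with the STAT genes' own starts named and the gray line marking equal percentiles. Stat2 lies at 99.6 and 99.3 and Stat3 at 85.6 and 90.6, and Stat6 lies above the line and Stat5a below it.

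The number of regions in both replicates per gene was 6 for Stat6, 5 each for Stat2, Stat3 and Stat5b, 3 for Stat5a and 2 for Stat4. The order depends on the lists: replicate 2 alone gave 6 for Stat5a and 8 for Stat5b, and replicate 1 alone gave 8 for Stat5b and 10 for Stat6. With the stronger 50% of regions Stat6 had 1 and Stat2 4, and within 100 kb Stat6 had 8, Stat2 10 and Stat5b 9. The median was 5, against 2 for all protein-coding genes (quartiles 0 and 4). At least 1 distal region was near 4 of 6 STAT genes (66.7%), against 38.8% of protein-coding genes. Since Stat3, Stat5a and Stat5b share distal regions, these 4 genes are not independent. Stat2 and Stat4 had 0.

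**Figure D3:**
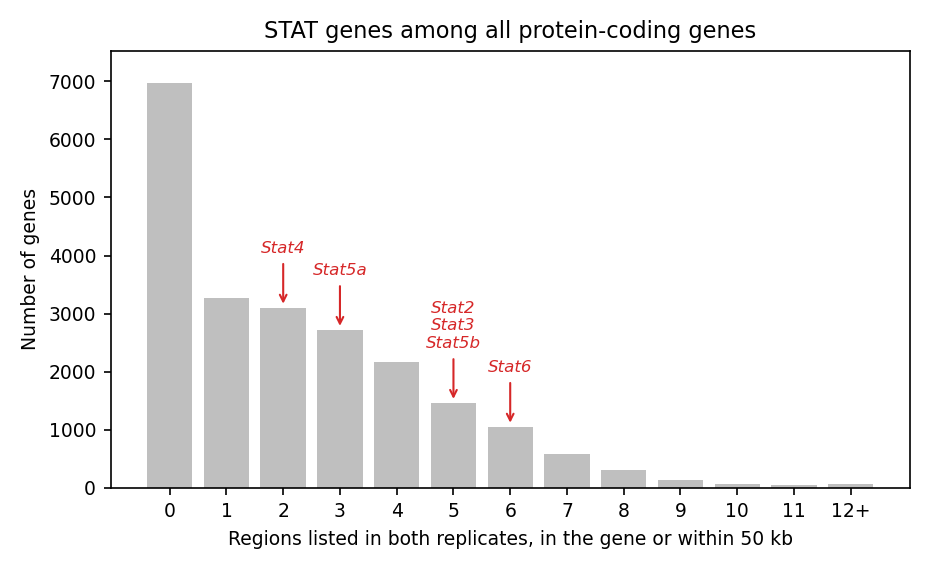
Number of protein-coding genes (y axis) by the number of regions in both replicates in the gene or within 50 kb (x axis), with the STAT genes marked by arrows. Stat4 sits at the genome median of 2.00 and Stat6 at 6.

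Within the 200 bp summit windows, 5 of the 20 regions held a GATA string, against 42.3% of all regions in both replicates. Among the 4 distal regions all held one, against 68.9% of all distal regions, and 3 of 4 held at least 2, against 35.0%. The fifth region was the weaker one at Rab5c, 1 of 15 promoter windows, against 16.5% of all promoter windows. The GATA-E-box composite was in 1 of the 4 distal windows, against 18.7% of all distal windows.

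The STAT palindrome TTCNNNGAA was in 0 of the 20 windows, against 6.08% of all regions. Over whole regions it was in 3 of 20, against 15.3%. These were the distal region upstream of Stat6 (TTCGGGGAA, 150 bp from the summit), the Pan2 start region (TTCTGGGAA and TTCTAAGAA) and the noncoding start past Stat4 (TTCCCAGAA). No start region of a STAT gene held it. CCAAT was in 8 of the 15 promoter windows, against 39.6% of all promoter windows, and the KLF string in 10 of 15, against 59.8%. The ETS string CCGGAAG was in 0 of 15, against 18.9% of all promoter windows. KLF matches include all those of the SP1 string CCCCGCCC.

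The genes around the STATs were examined as a list of 40 kinases, receptors, regulators, partners and targets of the JAK-STAT pathway. Of these, 32 (80%) had a promoter region in both replicates, 6 had one in neither and 2, Pim1 and Osm, had one in replicate 2 only. The background is the 38.8% of protein-coding genes given above. Among the 4 kinases, Jak1 had signals of 19.4 and 22.3 (mean percentile 99.6) and Tyk2, which pairs with the type I interferon receptor, 13.9 and 18.1 (93.2). Jak2, the kinase of the erythropoietin receptor, and Jak3 had no listed promoter region in either replicate, in the lenient lists as well. Near Jak2, 4 regions were listed in both replicates, 3 of them distal.

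Of the 12 receptor genes, 10 had a promoter region in both. The interferon receptor genes Ifngr1 (16.5 and 17.8) and Ifnar1 (15.5 and 17.9) had the highest mean percentiles, 96.4 and 95.5. Il2rg, the common gamma chain of interleukin 2 family receptors, had none in either replicate. Among feedback inhibitors of the family, 8 of 8 had one, led by Socs5 (15.8 and 16.9, mean percentile 94.8) and Socs7 (8.47 and 11.7, 62.8).

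All 3 PIAS genes, whose products inhibit STATs, had a promoter region in both, highest for Pias4 (10.9 and 14.4, mean percentile 79.9) and Pias1 (8.58 and 13.9, 69.5). All 4 phosphatase genes did, highest for Ptpn1 (16.2 and 18.6, 96.7) and Ptpn6 (11.8 and 16.5, 86.3). Irf9, whose product partners STAT2, had 11.1 and 11.5 (72.9). Among 8 known STAT target genes, 4 had one, highest for Bcl2l1, an antiapoptotic gene (11.6 and 11, 72.8), and Mcl1 (7.60 and 9.08, 47.9). Bcl6 and Ccnd1 had none in either replicate, though both lenient lists held a region at Ccnd1.

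**Figure D4:**
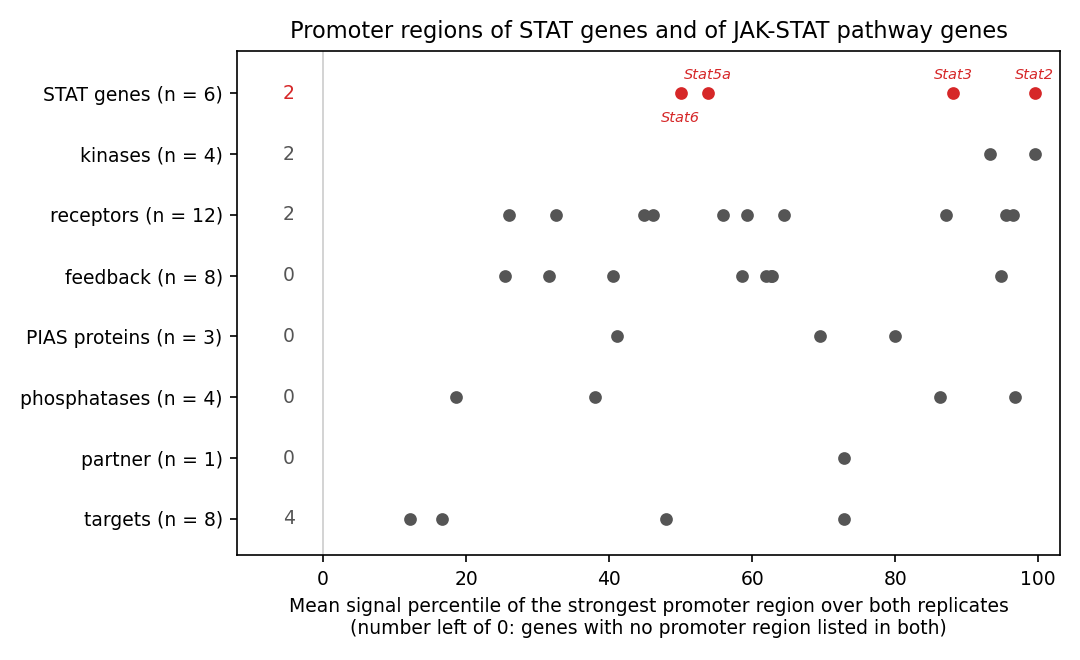
Mean signal percentile over both replicates (x axis) of the strongest promoter region of each gene, for the 6 STAT genes and, below them, the classes of the pathway list, 1 point per gene. The number left of 0 counts genes with no promoter region in both replicates, 2 of the 6 STAT genes. Stat2, at 99.5, lies beside the strongest kinase gene, Jak1, at 99.6.

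The 50 kb limit set which neighbours were counted. The outermost region in both replicates inside it was 44.5 kb from Stat2, 43.3 kb from Stat5b and 38.1 kb from Stat6. The nearest ones outside were 52.0 kb from Stat2, 54.1 kb from Stat5a (the Stat3 start), 58.2 kb from Stat5b, 69.6 kb from Stat6 and 69.7 kb from Stat3.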

How the data were processed

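ATAC-seq regions of 2 replicates of 1 group were read from the deposited peak lists on mm10, per the labels. Signal is the enrichment value that the authors' peak caller gave each peak, and −log10 p values were also as deposited. The aligner and peak caller were not given in the sources used here. Peak lists give no read depth. The main lists were those the authors thresholded by IDR. Peaks were merged per replicate and joined across replicates where they overlapped or touched, and compared with GENCODE M21. Strings were searched in 200 bp around the summit of the replicate with the higher percentile, on GRCm38.p6. Genes with a promoter region were counted per replicate and in both. With 1 group no test between groups could be run. The members and lists were chosen with earlier results of these data known. The text names all 6 members with every region in both replicates, and of the pathway list the 4 kinases, the 2 members per class with the highest promoter percentile and those with none in either, except 1 that is not reported here; Pim1 and Osm were named with values known. Other settings tried were the lenient and conservative lists, the stronger 50% of regions, unmerged summits, reciprocal overlap, each replicate alone, and other windows. Python 3.11.15, numpy 2.4.6, pysam 0.24.0, samtools 1.23.1, blastn 2.17.0 and matplotlib 3.10.9 were used. Merging, joining and string matching were tested on simulated data. Intervals for counts were not given, since the lists hold no reads.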

Additional observations from a re-analysis of the deposited data

How the results depend on the processing

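Depth is unknown for these lists, and a region in 1 list only may be one just under the threshold in the other. Of the 13 such regions, 9 had a region in the lenient list of the other replicate, and the share over all regions listed once was not computed. Of the family-level values tried under other settings, these moved. With the lenient lists, regions in both replicates numbered 31, distal regions 10 and regions with a GATA string 10. With the stronger 50% of regions, there were 11 regions in both, 2 distal regions, 2 STAT genes with a promoter region (Stat2 and Stat3), 4 regions in 1 replicate and 2 with a GATA string. The median percentile was then 78.3, and 18 pathway genes had a promoter region. This setting keeps only regions above the 50th percentile of each list, so its median had to exceed 50. With 100 kb around genes, there were 31 regions in both, 7 distal, 11 with a GATA string and 1 with TTCNNNGAA, and with 25 kb, 3 had a GATA string. Windows of 400 bp gave 2 regions with TTCNNNGAA and whole regions 3, and whole regions gave 9 with a GATA string. Leaving out a replicate gave 7 to 9 distal regions (9 without replicate 1), 8 to 9 with a GATA string (9 without replicate 1) and a median percentile of 41.9 to 44.7 (44.7 without replicate 1). With a replicate left out, listing in the other was enough for a region to count. The number of STAT genes with a promoter region was 5 with the lenient lists, the conservative list and without replicate 1, and 3 with a reciprocal overlap of 50%. Apart from what these settings fix, the causes were not tested. Of all family-level values tried, 55 stayed within the limits of a like result and 24 moved. Those limits were wide. Against 20 regions in both replicates, 14 within 25 kb and 27 without either replicate counted as staying. Of the counts of regions per gene, 36 stayed, among them 9 for Stat6 with the lenient lists, and 18 moved. Stat5b, at 5, had 8 with the lenient lists, the conservative list and without either replicate, 3 with the stronger 50%, 2 within 25 kb and 9 within 100 kb. Stat5a, at 3, had 6 without replicate 1, and 5 with the lenient lists, the conservative list and 100 kb. Stat6, at 6, had 10 without replicate 2 and 1 with the stronger 50%. Stat2, at 5, had 8 with the lenient lists, 2 within 25 kb and 10 within 100 kb. Stat3, at 5, had 3 with the stronger 50%, and Stat4, at 2, had 4 with the lenient lists. No paired analysis was possible because the series holds 1 group.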
